A study of Homo sapiens with 18 samples.

Results

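The transcripts of 9 receptor tyrosine kinase genes, CSF1R, PDGFRA, DDR2, EPHB1, EPHA3, NTRK2, MET, MST1R and KIT, were followed across a Hodgkin lymphoma line, its PAX5-inducible derivative and 2 Burkitt lymphoma lines. The members were taken by gene symbol from the 18417 genes that a whole-transcript expression array measured with probe sets of a single symbol, and all 9 were found. DDR2 had 2 probe sets, of which the brighter was used, and each of the other members had 1.

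The arrays formed 6 groups of 3. L428-PAX5+MAT was the L428-PAX5 line, in which mifepristone induces the B-lineage transcription factor PAX5, given 0.25 nM mifepristone for 2 days before the chromatin drugs. These were 5-aza-dC (5-aza-2'-deoxycytidine, which lowers DNA methylation) at 3 µM for 3 days and, in the last 24 hours, TSA (trichostatin A, which blocks histone deacetylases) at 640 nM. L428-PAX5+M was the same line kept 5 days in 0.25 nM mifepristone alone. L428+MAT and L428+M were the parental Hodgkin line L428 under those same 2 schedules, so that all 4 L428-derived groups had mifepristone. Raji and Namalwa, both Burkitt lymphoma lines, were given none of these agents. The medium of L428-PAX5 also held 25 mM HEPES, and L428-PAX5 without mifepristone was not analysed here, so PAX5, the derivation of the line and its medium cannot be told apart. Line and mifepristone cannot be told apart in any comparison with Raji or Namalwa. Whether replicates came from separate cultures is not stated, and p-values therefore reflect array-to-array spread that may be technical.

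Receptor tyrosine kinases span the cell membrane, bind a ligand outside the cell, pair up, and phosphorylate tyrosines on their own tails, where adaptor proteins dock and pass the signal to the RAS-MAPK and PI3K pathways. Normal B cells use few of them, whereas the Hodgkin and Reed-Sternberg cells of classical Hodgkin lymphoma, which descend from B cells that have lost their lineage program, are known for carrying several that belong to other tissues. In mouse B cells, Pax5 is known to repress Csf1r, the macrophage growth factor receptor gene.

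PAX5 transcript set the lines apart by their labels, with log2 values of 12.67 to 12.85 in L428-PAX5+MAT, 12.68 to 12.81 in L428-PAX5+M, 7.08 to 7.28 in L428+MAT and 6.7 to 8.64 in L428+M, against 10.77 to 10.97 in Raji and 10.85 to 11.31 in Namalwa. L428+M replicate 1, at 8.64, stood above the other L428 arrays for PAX5. As a mark of how bright a gene can be on these arrays without known expression, the 95th percentile of 341 olfactory receptor genes was taken on each array. It lay between 5.77 and 6.22 and is called the olfactory level; GFAP and RBFOX3 also lay above it, so passing it is no proof of expression. All 6 Hodgkin cell markers (TNFRSF8, FUT4, CCL17, MSC, IL13RA1 and FSCN1) lay above it in L428+M. Of these, 4 (TNFRSF8, FUT4, CCL17 and FSCN1) also did in Raji and in Namalwa. All 6 were still called higher in L428+M than in the Burkitt lines, beside 16.7% of all genes. Of the 5 measured B-cell markers, CD79B alone lay above the olfactory level in L428+M. Of those 5 B-cell markers, 5 lay above it in Raji and 4 in Namalwa, MS4A1 being the exception.

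Of the 9 receptor genes, 6 lay above the olfactory level on all 3 arrays in L428-PAX5+MAT, 6 in L428-PAX5+M, 6 in L428+MAT and 4 in L428+M, against 2 in Raji and 1 in Namalwa. The 4 of L428+M were DDR2, EPHB1, MET and MST1R. Those of Raji were CSF1R and MET, and that of Namalwa was CSF1R. In L428+M, CSF1R and PDGFRA passed the olfactory level on only 2 of the 3 arrays, and EPHA3, NTRK2 and KIT on none. The label of Hodgkin-cell receptors therefore held at the level of signal for only part of the set in the L428+M arrays. Log2 differences are given as the first-named group minus the second with their standard error (SE), and a gene is called where limma's moderated test gives a Benjamini-Hochberg adjusted p below 0.05 over all 18417 genes.

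**Figure D1:**
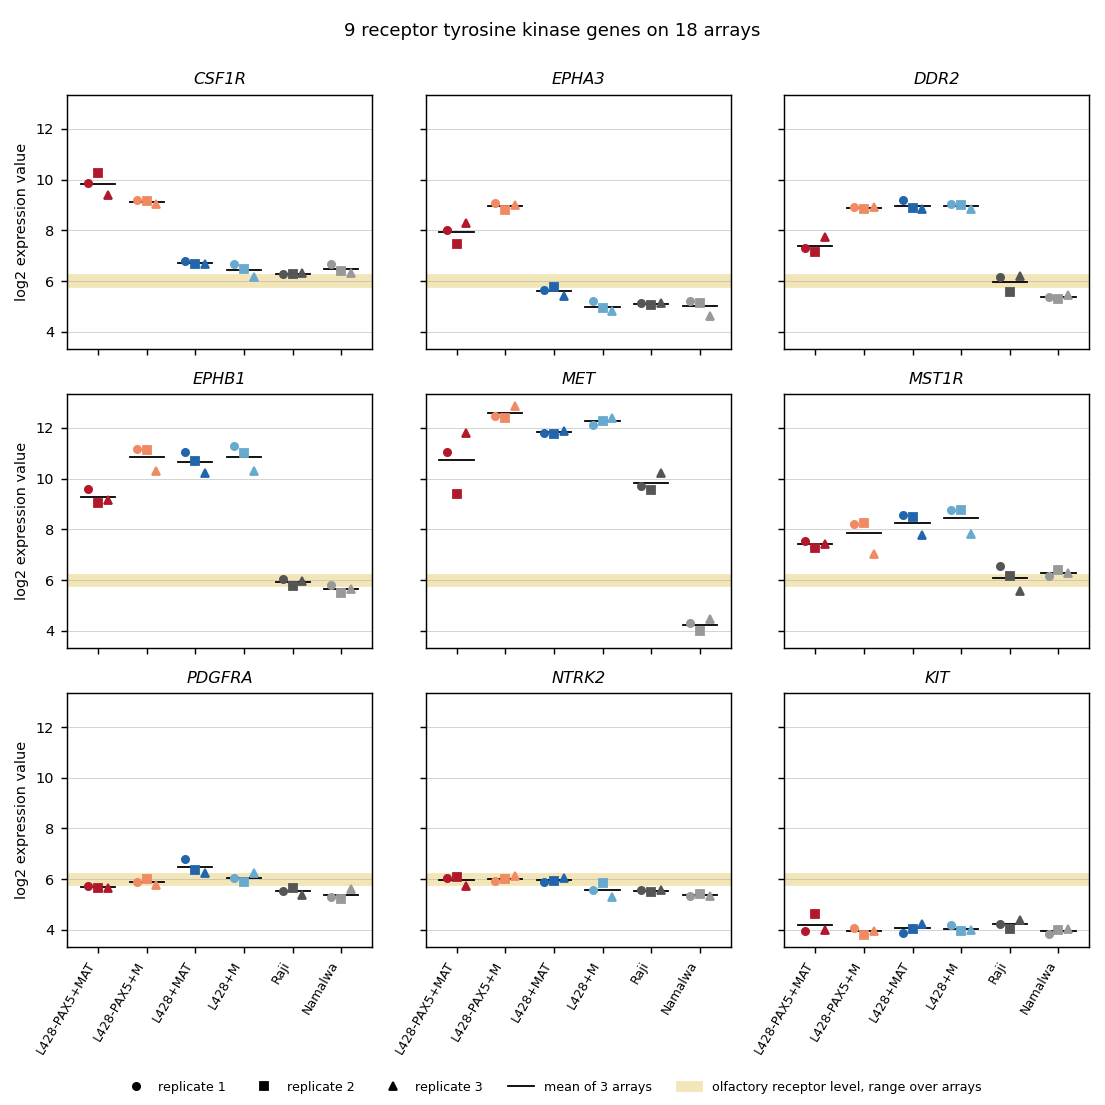
Log2 expression value of each of the 9 receptor genes (y axis) on the 3 arrays of each of the 6 groups (x axis), with the group mean as a line and the range of the olfactory level over arrays as a band. CSF1R and EPHA3 were high in both L428-PAX5 groups, with CSF1R at 9.04 to 10.28 on those 6 arrays, DDR2, EPHB1 and MST1R were higher in the L428-derived groups than in the Burkitt lines, MET was lowest in Namalwa, and KIT lay below the band in every group.

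A set of 5 receptor genes, EPHB1, MET, DDR2, MST1R and PDGFRA, were higher in L428+M than in the mean of Raji and Namalwa, and none was lower. The counts of 5 higher and 0 lower of 9 stand beside 16.7% of all genes called higher and 18.7% called lower. The members were chosen with earlier results of these data known, so this and later such contrasts only describe and do not test the set. The median log2 difference was 0.60 over the 9 members and −0.03 over all genes. At an unadjusted p below 0.05 the member counts were also 5 and 0. As these are bulk RNA samples, fewer cells with a transcript and less of it per cell cannot be told apart.

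EPHB1, a receptor for the membrane-bound ephrin-B ligands, read 9.58, 9.06 and 9.15 on the L428-PAX5+MAT arrays, 11.17, 11.12 and 10.29 in L428-PAX5+M, with 11.07, 10.69 and 10.23 in L428+MAT. It read 11.28, 11.01 and 10.30 in L428+M, against 6.06, 5.76 and 5.97 in Raji and 5.79, 5.48 and 5.66 in Namalwa. Every L428-derived array lay above every Burkitt array, and no Burkitt array lay above the olfactory level. EPHB1 was 5.08 ± 0.23 (SE) log2 units higher in L428+M than in the 2 Burkitt lines (limma adjusted p = 9.37e-13), which is 33.7-fold. The third array was the lowest in L428-PAX5+M, L428+MAT and L428+M.

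MET, the receptor for hepatocyte growth factor, read 11.06, 9.39 and 11.80 in L428-PAX5+MAT, 12.49, 12.39 and 12.87 in L428-PAX5+M, with 11.82, 11.75 and 11.90 in L428+MAT. It read 12.13, 12.28 and 12.41 in L428+M, against 9.71, 9.56 and 10.21 in Raji and 4.31, 3.99 and 4.46 in Namalwa. The 2 Burkitt lines thus stood far apart, with Namalwa under the olfactory level on all 3 arrays and Raji far over it. The log2 difference of L428+M was 2.45 ± 0.38 (SE) against Raji (limma adjusted p = 3.33e-05) and 8.02 ± 0.38 against Namalwa (limma adjusted p = 2.40e-12). Raji exceeded Namalwa by 5.57 ± 0.38 log2 units (limma adjusted p = 1.12e-09), which is 47.6-fold.

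DDR2, a receptor for fibrillar collagens, read 7.29, 7.14 and 7.73 in L428-PAX5+MAT, 8.91, 8.83 and 8.91 in L428-PAX5+M, with 9.20, 8.90 and 8.85 in L428+MAT. It read 9.05, 9.0 and 8.83 in L428+M, against 6.15, 5.58 and 6.21 in Raji and 5.37, 5.28 and 5.44 in Namalwa. All L428-derived arrays lay above all Burkitt arrays, and DDR2 was 3.29 ± 0.15 (SE) log2 units higher in L428+M than in the Burkitt lines (limma adjusted p = 1.11e-12). The dimmer DDR2 probe set read 6.52, 6.66 and 6.98 in L428+M, against 5.55, 4.63 and 4.82 in Raji and 4.75, 4.56 and 5.39 in Namalwa, again without overlap.

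MST1R, the receptor for macrophage-stimulating protein and a relative of MET, read 7.54, 7.25 and 7.43 in L428-PAX5+MAT, 8.22, 8.26 and 7.05 in L428-PAX5+M, with 8.57, 8.48 and 7.77 in L428+MAT. It read 8.76, 8.75 and 7.82 in L428+M, against 6.55, 6.16 and 5.59 in Raji and 6.15, 6.39 and 6.29 in Namalwa. All L428-derived arrays lay above all Burkitt arrays, while the ranges of L428-PAX5+M and L428-PAX5+MAT overlapped. MST1R was 2.26 ± 0.27 (SE) log2 units higher in L428+M than in the Burkitt lines (limma adjusted p = 1.58e-06).

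PDGFRA, a receptor for platelet-derived growth factors, read 5.73, 5.67 and 5.66 in L428-PAX5+MAT, 5.87, 6.0 and 5.78 in L428-PAX5+M, with 6.78, 6.38 and 6.25 in L428+MAT. It read 6.05, 5.88 and 6.24 in L428+M, against 5.52, 5.64 and 5.39 in Raji and 5.31, 5.23 and 5.61 in Namalwa. Its values therefore stayed close to the olfactory level in every group. The difference of 0.60 ± 0.13 (SE) between L428+M and the Burkitt lines passed the test (limma adjusted p = 9.46e-04), with all 3 L428+M arrays above all 6 Burkitt arrays. Against Raji alone the difference was 0.54 ± 0.15 (limma adjusted p = 0.00903), and without L428+M replicate 3 it was 0.45 with an adjusted p of 0.0504.

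CSF1R, EPHA3, NTRK2 and KIT were not called between L428+M and the Burkitt lines. Their differences and 95% intervals were 0.08 (−0.25 to 0.40) for CSF1R, −0.06 (−0.42 to 0.29) for EPHA3, 0.11 (−0.14 to 0.36) for NTRK2 and −0.04 (−0.35 to 0.27) for KIT. KIT, the stem cell factor receptor of mast cells and blood progenitors, read 3.95, 4.62 and 4.0 in L428-PAX5+MAT, 4.09, 3.79 and 3.97 in L428-PAX5+M, 3.88, 4.05 and 4.25 in L428+MAT and 4.18, 3.95 and 4.01 in L428+M, against 4.23, 4.05 and 4.39 in Raji and 3.83, 4.01 and 4.03 in Namalwa. All 18 KIT values lay under the olfactory level, neighbouring groups in the order of its means overlapped, and KIT was called in none of the 9 comparisons.

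Taken against each Burkitt line separately, the same 5 genes were called higher in L428+M. Beside these counts, 15.6% of all genes were called higher and 15.7% lower against Raji, and 15.5% higher and 18.4% lower against Namalwa. Between Raji and Namalwa, MET and DDR2 were called higher in Raji and none lower, beside 7.74% of all genes higher and 11.5% lower. The DDR2 difference between the Burkitt lines was 0.62 ± 0.17 (SE; limma adjusted p = 0.0142). That call was lost without Namalwa replicate 2 (0.0571), Raji replicate 1 (0.0758) or Raji replicate 3 (0.0803), and at 0.36 (0.337) with the mean of both DDR2 probe sets.

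**Figure D2:**
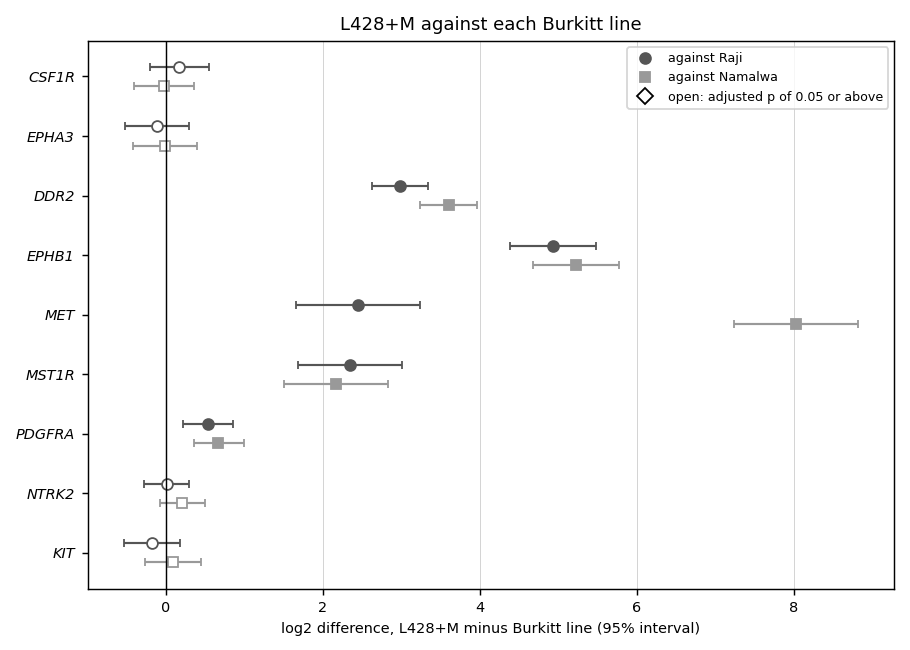
Log2 difference of L428+M minus Raji (circles) and L428+M minus Namalwa (squares) on the x axis for the 9 receptor genes (y axis), with 95% intervals; filled symbols mark an adjusted p below 0.05. EPHB1, DDR2, MST1R and PDGFRA were called against both Burkitt lines, MET differed by 2.45 from Raji and 8.02 from Namalwa, and CSF1R, EPHA3, NTRK2 and KIT were not called.

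With PAX5 induced and no chromatin drugs, CSF1R and EPHA3 rose in L428-PAX5+M relative to L428+M, NTRK2 passed the test with a small difference, and the other 6 receptor genes were not called. The counts of 3 higher and 0 lower of 9 stand beside 9.72% of all genes called higher and 6.55% called lower, and at an unadjusted p below 0.05 they were again 3 and 0. The median over the 9 members was −0.01, against −0.03 over all genes. The receptors that were high in L428+M, namely EPHB1, MET, DDR2 and MST1R, thus gave no call in the PAX5-expressing line.

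CSF1R, the receptor for the macrophage growth factors CSF1 and IL34, read 9.85, 10.28 and 9.39 in L428-PAX5+MAT, 9.21, 9.15 and 9.04 in L428-PAX5+M, with 6.79, 6.69 and 6.68 in L428+MAT. It read 6.67, 6.49 and 6.18 in L428+M, against 6.26, 6.27 and 6.30 in Raji and 6.67, 6.41 and 6.33 in Namalwa. All 6 L428-PAX5 arrays lay above all other arrays, and the ranges of L428+M and both Burkitt lines overlapped. The CSF1R difference, L428-PAX5+M minus L428+M, was 2.69 ± 0.18 (SE) log2 units or 6.43-fold (limma adjusted p = 8.15e-09), with a range of 2.55 to 2.80 when any 1 of the 6 arrays was left out. Of the monocyte markers CD14, CD68, CD163, LYZ, MRC1, ITGAM and CSF3R, 0 of 7 were called by limma in either direction, and 0 passed an unadjusted p below 0.05. Among all genes, 9.72% were called higher and 6.55% lower in this comparison. Of the 7 markers, CD68 alone lay above the olfactory level in either group. The mean of the 7 was 5.59 to 5.73 on the L428-PAX5+M arrays, against 5.62 to 5.71 for L428+M.

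EPHA3, a receptor for ephrin-A ligands, read 8.03, 7.45 and 8.29 in L428-PAX5+MAT, 9.09, 8.82 and 9.01 in L428-PAX5+M, with 5.66, 5.76 and 5.40 in L428+MAT. It read 5.23, 4.93 and 4.81 in L428+M, against 5.12, 5.07 and 5.12 in Raji and 5.21, 5.15 and 4.64 in Namalwa. Only the L428-PAX5 arrays lay above the olfactory level, and L428+M overlapped with Raji and Namalwa. The EPHA3 difference between those groups was 3.99 ± 0.19 (SE) log2 units or 15.8-fold (limma adjusted p = 1.70e-10), the largest among the 9 members in this comparison.

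NTRK2, the receptor for brain-derived neurotrophic factor, read 6.04, 6.07 and 5.73 in L428-PAX5+MAT, 5.93, 5.99 and 6.11 in L428-PAX5+M, with 5.88, 5.94 and 6.06 in L428+MAT. It read 5.57, 5.84 and 5.28 in L428+M, against 5.59, 5.51 and 5.56 in Raji and 5.33, 5.42 and 5.32 in Namalwa. All values lay near or under the olfactory level. The difference of 0.44 ± 0.14 (SE) between L428-PAX5+M and L428+M passed the test narrowly (limma adjusted p = 0.0345). It was lost, at adjusted p of 0.0559 to 0.18, without L428+M replicate 1 or 3 or without any 1 of the 3 L428-PAX5+M arrays.

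For the 6 members that were not called with PAX5, the 95% intervals of the log2 difference between L428-PAX5+M and L428+M were −0.56 to 0.54 for EPHB1, −0.44 to 0.28 for DDR2, −0.48 to 1.10 for MET, −1.26 to 0.06 for MST1R, −0.49 to 0.15 for PDGFRA and −0.45 to 0.25 for KIT.

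The chromatin drugs were tested in each of the 2 lines. A call in 1 line alone does not show that the effects differed. The test of that difference, given further below, called EPHA3, DDR2 and EPHB1 but not MET or CSF1R. In L428-PAX5, adding 5-aza-dC and TSA went with a rise of CSF1R and a fall of MET, EPHB1, DDR2 and EPHA3, so that 1 of the 9 members was called higher and 4 lower. Among all genes, 14.2% were called higher and 19.4% lower, and the median difference was −0.44 over the members and −0.04 over all genes. In L428, limma called 0 of the 9 members in either direction, beside 4.21% of all genes higher and 0.635% lower, with medians of 0.02 over the members and −0.04 over all genes. At an unadjusted p below 0.05, 3 members were higher in L428+MAT than in L428+M and 0 lower.

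Set against L428-PAX5+M, and with the array values given above, MET in L428-PAX5+MAT fell by 1.83 ± 0.38 (SE) on the log2 scale (limma adjusted p = 8.97e-04). The 3 L428-PAX5+MAT arrays lay below the 3 L428-PAX5+M arrays but spread from 9.39 to 11.80, and without L428-PAX5+MAT replicate 2 the difference was −1.15. EPHB1 fell by 1.60 ± 0.26 (limma adjusted p = 1.18e-04), DDR2 by 1.5 ± 0.17 (limma adjusted p = 2.99e-06) and EPHA3 by 1.05 ± 0.19 (limma adjusted p = 3.50e-04). CSF1R was higher by 0.71 ± 0.18 (limma adjusted p = 0.00468). The ranges of the 2 groups did not overlap for any of these 5 genes. The dimmer DDR2 probe set read 4.98, 4.57 and 5.74 in L428-PAX5+MAT, against 6.73, 6.88 and 6.97 in L428-PAX5+M. MST1R was not called at −0.44 ± 0.32 (limma adjusted p = 0.331), but was called at −0.84 (adjusted p = 0.0379) without L428-PAX5+M replicate 3, its lowest array in that group.

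The replicates of L428-PAX5+MAT did not respond alike. Replicate 2 had the highest CSF1R value of the 3 (10.28) and the lowest values of MET (9.39), EPHA3 (7.45), DDR2 (7.14) and EPHB1 (9.06). Replicate 3 had the lowest CSF1R value (9.39) and the highest of MET (11.80), EPHA3 (8.29) and DDR2 (7.73). The cause of this spread was not tested. Markers of other tissues moved with the drugs too: of 5 epithelial genes 3 were called higher in L428-PAX5+MAT against L428-PAX5+M and 2 in L428+MAT against L428+M, with list means of 7.18 to 7.41 in L428-PAX5+MAT against 6.49 to 6.77 in L428-PAX5+M, and of 7.27 to 7.35 in L428+MAT against 6.62 to 6.7 in L428+M. Of 5 neuronal or glial genes, 4 were called higher in L428-PAX5+MAT and 1 in L428+MAT. Among all genes, 14.2% were called higher and 19.4% lower with the drugs in L428-PAX5, and 4.21% and 0.635% in L428. The Hodgkin cell markers fell in L428-PAX5 alongside MET, EPHB1, DDR2 and EPHA3: 4 of 6 (TNFRSF8, CCL17, MSC and IL13RA1) were called lower in L428-PAX5+MAT against L428-PAX5+M and 0 higher (0 at an unadjusted p below 0.05), with a median of −1.32 and list means of 9.31 to 9.52 against 10.32 to 10.49. In L428, limma called 0 of the 6 in either direction (0 at an unadjusted p below 0.05). The test of the difference between the 2 drug effects called 4 lower (median −1.25), beside 10.6% of all genes. The part of all these markers in the receptor results was not tested.

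In L428, EPHA3 differed by 0.62 ± 0.19 (SE) between L428+MAT and L428+M (limma adjusted p = 0.0833), PDGFRA by 0.41 ± 0.15 (0.155) and NTRK2 by 0.40 ± 0.14 (0.133), each without overlap of the arrays. With the replicate number as a block, which pairs same-numbered arrays, EPHA3 was called (0.62, adjusted p = 0.0389). NTRK2 was called at 0.54 (0.0467) without L428+M replicate 2. The 95% intervals for the genes that fell in L428-PAX5 were −1.24 to 0.34 for MET, −0.75 to 0.35 for EPHB1 and −0.34 to 0.38 for DDR2. The dimmer DDR2 probe set read 6.73, 5.87 and 5.85 in L428+MAT, against 6.52, 6.66 and 6.98 in L428+M. The 2 groups overlapped there, but 2 of the 3 L428+MAT arrays lay below all L428+M arrays, unlike with the brighter probe set. With the mean of both probe sets the DDR2 difference was −0.27 in L428 (limma adjusted p = 0.629).

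The test of the difference between the 2 drug effects, that in L428-PAX5 minus that in L428, called 3 members lower and 0 higher, beside 10.6% of all genes lower and 5.64% higher, with medians of −0.61 over the members and 0.01 over all genes. The differences were −1.67 ± 0.27 (SE) for EPHA3 (limma adjusted p = 5.75e-04), −1.52 ± 0.24 for DDR2 (limma adjusted p = 4.50e-04) and −1.40 ± 0.37 for EPHB1 (limma adjusted p = 0.0148). EPHA3 lay under the olfactory level on every L428+MAT and L428+M array, so a fall of it in L428 could hardly show. At an unadjusted p below 0.05, 0 members were higher and 6 lower. With the replicate block 5 members were called lower, the added genes being MET at −1.38 (adjusted p = 0.0201, against 0.087 without the block) and PDGFRA at −0.61 (0.0365, against 0.057). MET was also called, at −1.91 (0.00428), without L428-PAX5+MAT replicate 3, and PDGFRA at −0.70 (0.0412) without L428+M replicate 3 and −0.72 (0.0321) without L428+MAT replicate 3. CSF1R, at 0.43 (0.285), was called at 0.66 (0.0376) without L428-PAX5+MAT replicate 3, and NTRK2, at −0.46 (0.127), at −0.60 (0.046) without L428+M replicate 2.

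**Figure D3:**
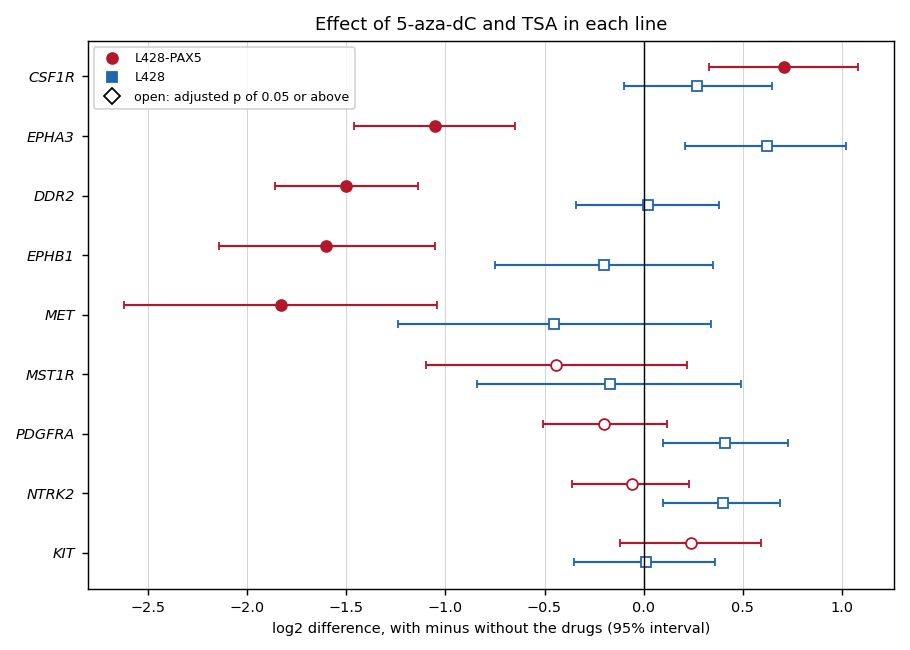
Log2 difference with minus without 5-aza-dC and TSA on the x axis for the 9 receptor genes (y axis), in L428-PAX5 (circles, L428-PAX5+MAT minus L428-PAX5+M) and in L428 (squares, L428+MAT minus L428+M), with 95% intervals; filled symbols mark an adjusted p below 0.05. In L428-PAX5, CSF1R lay at 0.71 and MET, EPHB1, DDR2 and EPHA3 between −1.83 and −1.05, whereas no member was called in L428.

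Because 5-aza-dC acts on methylated CG pairs, the upstream sequences of the 5 genes that changed with the drugs in L428-PAX5 are shown, to let their CG content be seen beside the direction of change. These are the 250 bases before the RefSeq start of each gene in build GRCh38.p14, on the strand of the gene, 5′ to 3′, with each CG pair in capitals. The arrays did not measure methylation, and nothing in these data says which start site the cells used. CSF1R lies at chr5:150113366-150113615 (minus strand), MET at chr7:116671946-116672195 (plus), EPHB1 at chr3:134795010-134795259 (plus), DDR2 at chr1:162630613-162630862 (plus) and EPHA3 at chr3:89107371-89107620 (plus).
CSF1R: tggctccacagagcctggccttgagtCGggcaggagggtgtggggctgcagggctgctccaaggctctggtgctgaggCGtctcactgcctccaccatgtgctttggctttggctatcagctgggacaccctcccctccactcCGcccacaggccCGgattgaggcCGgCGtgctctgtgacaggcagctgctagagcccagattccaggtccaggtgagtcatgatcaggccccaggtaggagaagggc
MET: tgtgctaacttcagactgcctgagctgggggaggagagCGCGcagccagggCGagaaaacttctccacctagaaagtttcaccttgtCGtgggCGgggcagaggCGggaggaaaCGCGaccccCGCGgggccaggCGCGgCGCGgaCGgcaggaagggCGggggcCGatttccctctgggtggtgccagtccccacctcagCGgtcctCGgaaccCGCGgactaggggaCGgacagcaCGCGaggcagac
EPHB1: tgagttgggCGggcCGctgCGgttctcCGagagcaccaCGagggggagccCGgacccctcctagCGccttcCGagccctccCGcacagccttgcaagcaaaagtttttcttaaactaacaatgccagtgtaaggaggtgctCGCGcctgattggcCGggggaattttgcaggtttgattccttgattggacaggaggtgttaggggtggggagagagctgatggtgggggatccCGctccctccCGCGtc
DDR2: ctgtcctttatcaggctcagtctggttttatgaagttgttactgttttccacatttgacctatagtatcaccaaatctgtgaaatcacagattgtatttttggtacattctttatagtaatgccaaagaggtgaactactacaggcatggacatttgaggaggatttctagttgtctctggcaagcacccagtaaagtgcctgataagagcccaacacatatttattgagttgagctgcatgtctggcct
EPHA3: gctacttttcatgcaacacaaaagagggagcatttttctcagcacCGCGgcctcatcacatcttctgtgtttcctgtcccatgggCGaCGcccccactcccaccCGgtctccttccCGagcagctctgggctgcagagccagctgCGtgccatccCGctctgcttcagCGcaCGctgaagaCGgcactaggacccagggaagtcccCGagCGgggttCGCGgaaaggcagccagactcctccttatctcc
The window of CSF1R, the gene that rose, held 6 CG pairs. Among the 4 that fell, MET held 24, EPHB1 15 and EPHA3 15, and DDR2 held none at all, so these genes did not share a CG content. All 9 members matched the RefSeq table, whose 27305 promoters had a median of 11 CG pairs in the same window, with quartiles of 3 and 23. The remaining counts were 34 for KIT, 20 for MST1R, 8 for PDGFRA and 7 for NTRK2. The letters GCNTGAC, on either strand, part of the recognition sequence described for PAX5, occurred in 9.12% of all these windows and in 0 of the 9 members; that says only that these letters are not in these windows.

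Between the lines under the drugs, L428-PAX5+MAT against L428+MAT, CSF1R and EPHA3 were higher and PDGFRA, DDR2, EPHB1, MET and MST1R were lower, that is 2 higher and 5 lower of 9 beside 14.3% and 17.7% of all genes. The median log2 difference was −0.78 over the members and 0 over all genes. CSF1R differed by 3.12 ± 0.18 (SE; limma adjusted p = 7.92e-10) and EPHA3 by 2.31 ± 0.19 (limma adjusted p = 6.45e-08). DDR2 stood at −1.60 ± 0.17 (limma adjusted p = 1.16e-06), EPHB1 stood at −1.40 ± 0.26 (limma adjusted p = 3.74e-04) and PDGFRA at −0.78 ± 0.15 (limma adjusted p = 4.83e-04). These 5 calls held whichever array was left out.

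The other 2 calls between the drug-treated lines lay close to the threshold. MET stood at −1.08 ± 0.38 (limma adjusted p = 0.0343) and was lost without any 1 of the L428+MAT arrays, at −1.11 to −1.04 (adjusted p 0.0655 to 0.0833). Without L428-PAX5+MAT replicate 2 it stood at −0.40 (0.227). MST1R stood at −0.87 ± 0.32 (limma adjusted p = 0.0427) and was lost without L428+MAT replicate 1 or 2 or without any 1 of the L428-PAX5+MAT arrays, at −0.93 to −0.72 (0.0638 to 0.157). L428+M, L428+MAT, L428-PAX5+M and L428-PAX5+MAT each enter several of these comparisons, so the comparisons share arrays and are not independent.

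Of 25 genes for ligands of the 9 receptors, 24 were measured. CSF1, the main ligand of CSF1R, read 9.21, 8.71 and 9.20 in L428-PAX5+MAT, 10.25, 10.50 and 9.87 in L428-PAX5+M, 11.69, 11.31 and 11.23 in L428+MAT and 11.27, 11.18 and 10.70 in L428+M, against 7.63, 7.48 and 7.15 in Raji and 7.51, 7.65 and 7.05 in Namalwa. The ligand was thus lowest among the L428-derived groups where its receptor was highest. CSF1 was 3.64 ± 0.19 (SE) log2 units higher in L428+M than in the Burkitt lines (limma adjusted p = 7.38e-12). It was lower by 0.84 ± 0.22 in L428-PAX5+M against L428+M (limma adjusted p = 0.01). That call missed the threshold when L428+M replicate 1 (0.0516) or L428-PAX5+M replicate 3 (0.0617) was left out. CSF1 fell by a further 1.17 ± 0.22 in L428-PAX5+MAT against L428-PAX5+M (limma adjusted p = 3.65e-04). IL34, the second ligand, rose by 0.53 ± 0.14 in that comparison (limma adjusted p = 0.00824) and was called in no other of the 9.

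The ephrin ligands moved as well. EFNA5, a ligand of EPHA3, read 7.07, 7.19 and 7.67 in L428-PAX5+MAT, 7.20, 7.60 and 7.44 in L428-PAX5+M, 8.63, 8.58 and 8.66 in L428+MAT and 8.56, 8.51 and 8.58 in L428+M, against 5.10, 5.32 and 5.57 in Raji and 9.22, 9.08 and 9.28 in Namalwa. It was lower in both L428-PAX5 groups, where EPHA3 was higher, by 1.14 ± 0.16 (SE) in L428-PAX5+M against L428+M (limma adjusted p = 4.76e-05). EFNB1, a ligand of EPHB1, read 8.29, 8.60 and 7.49 in L428-PAX5+MAT, 8.39, 8.30 and 8.17 in L428-PAX5+M, 7.45, 7.35 and 7.31 in L428+MAT and 7.25, 7.12 and 7.21 in L428+M, against 7.11, 7.18 and 6.97 in Raji and 7.18, 7.48 and 7.02 in Namalwa. With PAX5 it was 1.10 ± 0.20 higher (L428-PAX5+M minus L428+M, limma adjusted p = 7.08e-04), without overlap. EFNB2, also a ligand of EPHB1, rose by 1.06 ± 0.23 with the drugs in L428-PAX5 (limma adjusted p = 0.00165), averaging 5.62 in L428-PAX5+MAT and 4.56 in L428-PAX5+M, with 1 of these 6 arrays above the olfactory level.

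The ligands of MET and KIT showed little signal. HGF read 4.13 to 4.31 in L428-PAX5+MAT, 4.23 on all 3 arrays of L428-PAX5+M, 4.18 to 4.40 in L428+MAT and 4.32 to 4.42 in L428+M, against 4.25 to 4.46 in Raji and 4.45 to 4.84 in Namalwa, under the olfactory level throughout. KITLG lay under it on all 18 arrays, and its call with the drugs in L428-PAX5 (0.57 ± 0.19 (SE), limma adjusted p = 0.0251) was lost without L428-PAX5+MAT replicate 2, at 0.37 (0.158), replicate 1 of that group or L428-PAX5+M replicate 1. MST1, the ligand of MST1R, was not called. Its difference between L428-PAX5+M and L428+M was −0.82 (limma adjusted p = 0.103), and it was called with the block (adjusted p = 0.0241) and, at −1.36 (4.93e-04), without L428+M replicate 3. BDNF, a ligand of NTRK2, stood at −0.70 ± 0.17 in L428-PAX5+M against L428+M (limma adjusted p = 0.00722), also under the olfactory level.

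Over the 24 measured ligand genes, 4 were higher and 3 lower in L428+M than in the Burkitt lines, beside 16.7% and 18.7% of all genes. The count lower was 1 without L428+M replicate 3, and the median was 0.01. In L428-PAX5+M against L428+M, 2 were higher and 3 lower (median −0.15), beside 9.72% and 6.55% of all genes. Leaving out L428+M replicate 3 or adding the block gave 5 lower, and leaving out L428-PAX5+M replicate 1 or L428+M replicate 2 or 3 gave 1 higher. In L428-PAX5+MAT against L428-PAX5+M, 4 were higher and 1 lower (median −0.06), beside 14.2% and 19.4% of all genes. The count lower was 3 under the block and 2 without L428-PAX5+MAT replicate 1 or 2. In L428+MAT against L428+M, limma called 0 higher (1 at an unadjusted p below 0.05) and 1 lower, EFNA4 at −1.20 ± 0.21 (SE; adjusted p = 0.00112), with 2 lower under the block. Of all genes, 4.21% were called higher and 0.635% lower there.

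**Figure D4:**
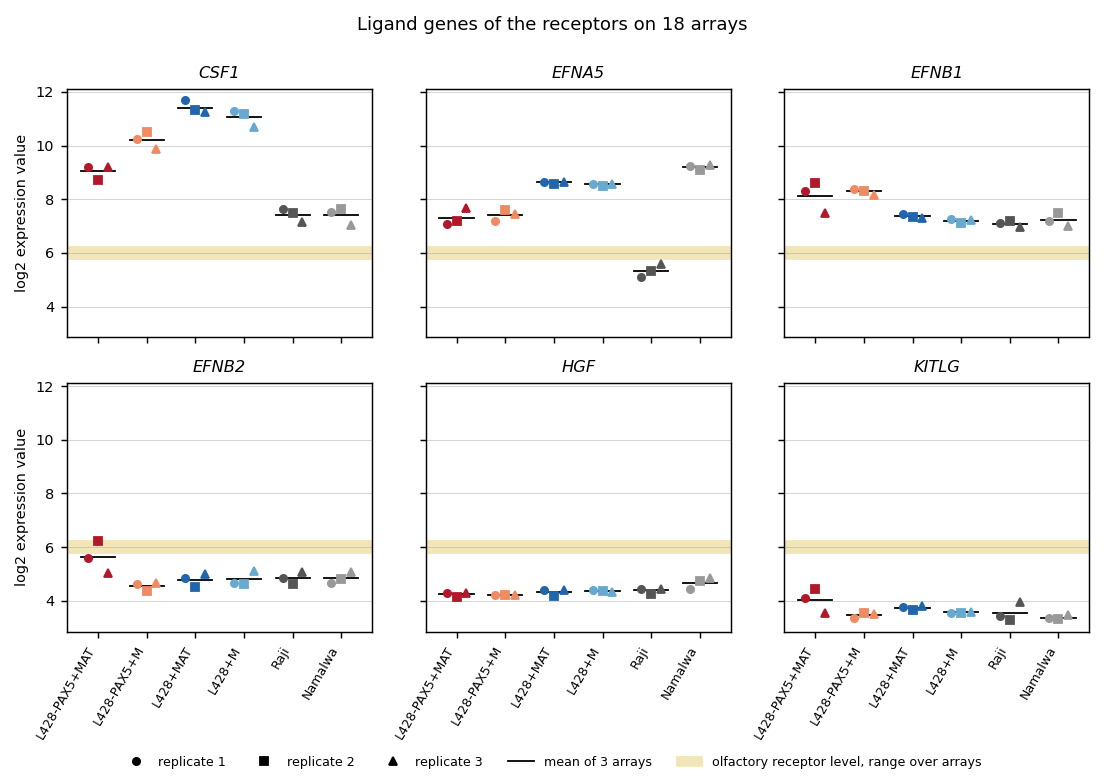
Log2 expression value (y axis) of 6 ligand genes on the 3 arrays of each group (x axis), with group means as lines and the olfactory level as a band. CSF1 lay at 8.71 to 9.21 in L428-PAX5+MAT and 10.70 to 11.27 in L428+M, EFNA5 was lower and EFNB1 higher in both L428-PAX5 groups than in the L428 groups, and HGF and KITLG lay under the band in every group.

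Signalling from these receptors is held back by inhibitors that the pathway itself induces, such as the MAPK phosphatase DUSP6 and the Sprouty proteins. DUSP6 read 8.36, 7.72 and 8.62 in L428-PAX5+MAT, 10.19, 9.61 and 9.83 in L428-PAX5+M, 10.94, 10.60 and 10.61 in L428+MAT and 11.25, 11.09 and 10.92 in L428+M, against 5.62, 5.16 and 5.20 in Raji and 5.39, 5.20 and 5.82 in Namalwa. It was 5.69 ± 0.19 (SE) log2 units higher in L428+M than in the Burkitt lines (limma adjusted p = 1.65e-14), with all L428-derived arrays above all Burkitt arrays. It was lower by 1.21 ± 0.22 in L428-PAX5+M against L428+M (limma adjusted p = 6.49e-04). With the drugs in L428-PAX5 it fell by a further 1.64 ± 0.22 (limma adjusted p = 1.62e-05). SPRY2 was 3.76 ± 0.22 higher in L428+M than in the Burkitt lines (limma adjusted p = 4.93e-11) and fell by 1.22 ± 0.25 with the drugs in L428-PAX5 (limma adjusted p = 9.80e-04).

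ERRFI1, a feedback inhibitor of the EGF receptor family, moved the other way. It read 8.78, 9.86 and 7.89 in L428-PAX5+MAT, 4.85, 4.86 and 5.15 in L428-PAX5+M, 6.84, 6.20 and 5.98 in L428+MAT and 4.84, 4.95 and 4.68 in L428+M, against 4.72, 4.86 and 5.21 in Raji and 4.98, 5.01 and 4.96 in Namalwa. It was high only in L428-PAX5+MAT, and in L428+MAT replicate 3 it lay under that array's olfactory level of 6.16. L428-PAX5+MAT replicate 2, the array with the lowest MET among the L428-derived arrays, had the highest value. The rise with the drugs was 3.89 ± 0.32 (SE) in L428-PAX5 (limma adjusted p = 8.46e-08) and 1.52 ± 0.32 in L428 (limma adjusted p = 0.0072), the second lost without L428+MAT replicate 1 (0.0524). The difference between the 2 rises was 2.38 ± 0.46 (limma adjusted p = 0.00187).

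Over 17 measured brake genes of 19, 9 were higher and 3 lower in L428+M than in the Burkitt lines (median 0.45), beside 16.7% and 18.7% of all genes. LRIG1, which speeds the turnover of receptors, was the most lowered at −3.78 ± 0.19 (SE; limma adjusted p = 3.63e-12). In L428-PAX5+M against L428+M, 0 were higher by limma (1 at an unadjusted p below 0.05) and 4 lower (median −0.33), beside 9.72% and 6.55% of all genes. SPRED1 was the most lowered at −1.38 ± 0.18 (limma adjusted p = 1.71e-05). With the drugs in L428-PAX5, 7 were higher and 4 lower (median −0.01), beside 14.2% and 19.4% of all genes. The count lower was 2 without L428-PAX5+M replicate 1. With the drugs in L428, 2 were higher, ERRFI1 and LRIG1, and 1 lower, SPRY1, beside 4.21% and 0.635% of all genes. The count lower was 2 under the block. LRIG1 (0.78) and SPRY1 (−0.76) each lost the call when any 1 of the L428+MAT arrays, or replicate 1 or 2 of L428+M, was left out, at 0.53 (0.24) and −0.61 (0.225) without L428+M replicate 2.

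Among MAPK output genes, 13 of 14 were measured. EGR1, an immediate early transcription factor, read 11.15, 11.46 and 10.08 in L428-PAX5+MAT, 8.89, 7.55 and 7.78 in L428-PAX5+M, 11.95, 10.72 and 11.70 in L428+MAT and 11.69, 10.36 and 11.36 in L428+M, against 10.77, 10.53 and 10.42 in Raji and 7.99, 7.91 and 7.61 in Namalwa. It was low in L428-PAX5+M and Namalwa and higher in the other groups. EGR1 was lower by 3.06 ± 0.40 (SE) in L428-PAX5+M against L428+M (limma adjusted p = 2.16e-05). With the drugs in L428-PAX5 it rose by 2.83 ± 0.40 (limma adjusted p = 2.68e-05). FOS was likewise lower by 2.02 ± 0.42 in L428-PAX5+M against L428+M (limma adjusted p = 0.00192). It rose by 2.18 ± 0.42 with the drugs in L428-PAX5 (limma adjusted p = 4.95e-04). Over the 13 genes, 4 were higher and 2 lower in L428+M than in the Burkitt lines (median 0.15), beside 16.7% and 18.7% of all genes. With PAX5 (L428-PAX5+M against L428+M) 3 were higher and 4 lower (median −0.12), beside 9.72% and 6.55% of all genes. Those higher were ETV5 at 1.27 ± 0.34, CCND1 at 0.60 ± 0.16 and MYC at 0.48 ± 0.15. The count higher was 1 without L428-PAX5+M replicate 2. With the drugs, 7 were higher and 1 lower in L428-PAX5 (median 0.42), and limma called 0 of them in L428 in either direction, against 1 higher and 0 lower at an unadjusted p below 0.05 and 1 higher with the block. The gene called lower with the drugs in L428-PAX5 was MYC, at −0.86 ± 0.15 (limma adjusted p = 1.83e-04). The shares of all genes called higher and lower were 14.2% and 19.4% in L428-PAX5, and 4.21% and 0.635% in L428.

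**Figure D5:**
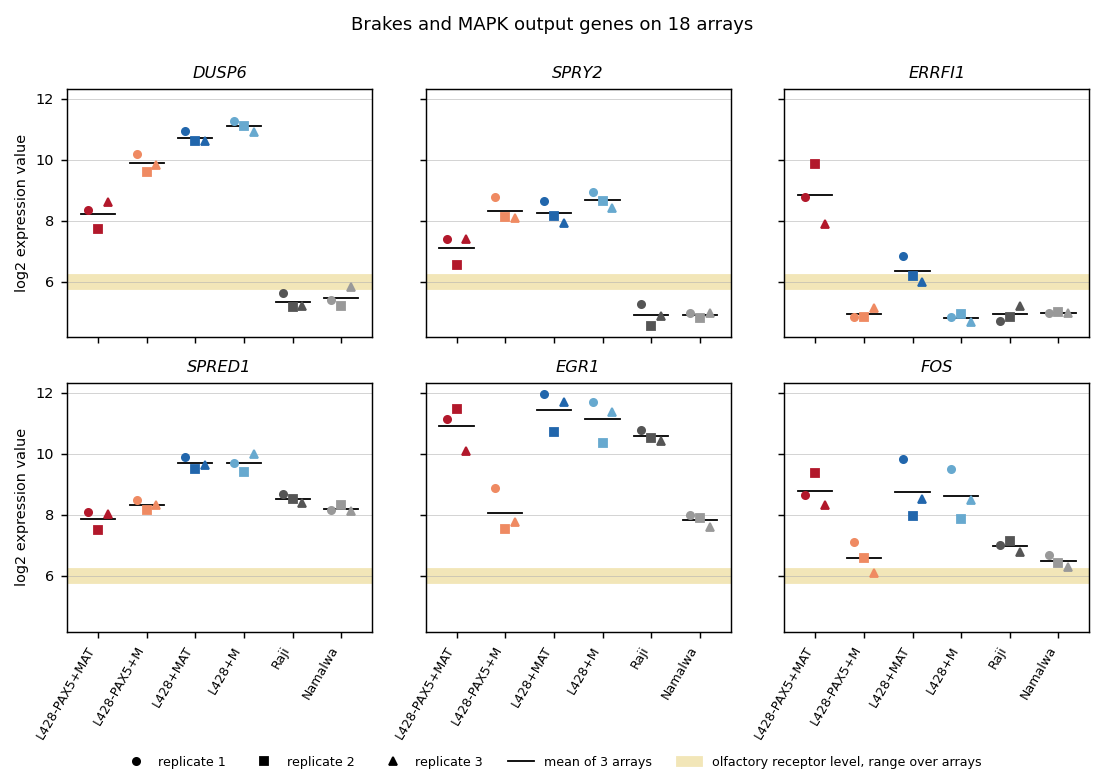
Log2 expression value (y axis) of 4 brakes (DUSP6, SPRY2, ERRFI1, SPRED1) and 2 MAPK output genes (EGR1, FOS) on the 3 arrays of each group (x axis), with group means as lines and the olfactory level as a band. DUSP6 lay between 10.92 and 11.25 in L428+M, lower in both L428-PAX5 groups and within or under the band in the Burkitt lines, while ERRFI1 lay well above the band in L428-PAX5+MAT at 7.89 to 9.86 and EGR1 was low in L428-PAX5+M and Namalwa.

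Of 49 other receptor tyrosine kinase genes, 44 were measured. In L428+M against the Burkitt lines, 3 of them were higher and 9 lower (median −0.04), beside 16.7% and 18.7% of all genes. MERTK, a receptor for clearing dying cells, was higher by 2.10 ± 0.25 (SE; limma adjusted p = 1.38e-06). ROR1 and the insulin receptor gene INSR were lower, at −4.28 ± 0.15 (limma adjusted p = 4.87e-14) and −3.04 ± 0.16 (limma adjusted p = 9.88e-12). With the drugs in L428-PAX5, 10 of the 44 were higher and 1 lower (median 0.16), with 6 higher without L428-PAX5+MAT replicate 1, beside 14.2% and 19.4% of all genes. Those higher included the ephrin receptors EPHB3 (1.36 ± 0.20, adjusted p = 4.92e-05), EPHA4 (1.10 ± 0.18, adjusted p = 1.32e-04) and EPHA7 (1.09 ± 0.14, adjusted p = 6.98e-06), while the ephrin receptors EPHB1 and EPHA3 fell in the same arrays. EPHA7 stayed under the olfactory level. In L428-PAX5+M against L428+M, 2 were higher and 1 lower (median −0.05), beside 9.72% and 6.55% of all genes. FGFR1 was higher by 0.77 ± 0.12 (limma adjusted p = 1.43e-04), and under the block 5 were higher and 2 lower. FGFR3 (0.66) and ERBB4 (−0.54) lost their calls without L428+M replicate 1, at adjusted p of 0.0549 and 0.0598, and each without 3 other arrays (up to 0.201 and 0.112). With the drugs in L428, 3 were higher and limma called 0 lower (3 at an unadjusted p below 0.05), beside 4.21% and 0.635% of all genes. Under the block 6 were higher and 1 lower. Leaving out L428+M replicate 2 gave 1 lower.

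Of 22 genes for receptor-proximal adaptors and effectors, which carry the signal of these receptors inward, 17 were measured. In L428+M against the Burkitt lines 3 were higher and 6 lower (median −0.18), beside 16.7% and 18.7% of all genes. GAB2, a docking protein used by MET and KIT among others, led at 2.23 ± 0.16 (SE; limma adjusted p = 9.01e-10), and GAB1 was lowest at −1.32 ± 0.11 (limma adjusted p = 9.93e-09), or −0.83 with the mean of its probe sets. With PAX5, 1 was higher and 5 lower (median −0.24), beside 9.72% and 6.55% of all genes. The 1 higher was the phosphatase gene PTPN11 at 0.91 ± 0.17 (limma adjusted p = 9.46e-04). GAB2, at −0.95 ± 0.18 (limma adjusted p = 0.0011), was among those lower. Under the block 2 were higher, and without L428-PAX5+M replicate 2 the count lower was 3. With the drugs in L428-PAX5, 1 was higher and 6 lower (median −0.37), beside 14.2% and 19.4% of all genes. Those lower were led by SOS1 at −1.0 ± 0.22 (limma adjusted p = 0.00185) and NCK2 at −0.94 ± 0.16 (limma adjusted p = 1.42e-04). The block gave 2 higher and 9 lower, leaving out L428-PAX5+MAT replicate 3 gave 3 higher, leaving out L428-PAX5+M replicate 1 gave 3 lower, and SOS1 stood at −0.65 without L428-PAX5+MAT replicate 2. With the drugs in L428, GAB2 was the 1 gene called higher (0.69 ± 0.18, limma adjusted p = 0.0354), lost at 0.52 (0.159) without L428+M replicate 3 and also when replicate 1 of either group or replicate 2 of L428+MAT was left out. Of all genes, 4.21% were called higher and 0.635% lower there.

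Of 8 transcription factors linked to CSF1R transcription, 7 were measured. With PAX5, 1 was higher and 1 lower (median −0.27), with the drugs in L428-PAX5 3 were higher and 1 lower (median 0.10), and with the drugs in L428 1 was higher and limma called 0 lower (0 at an unadjusted p below 0.05). In the same order, 9.72%, 14.2% and 4.21% of all genes were called higher, and 6.55%, 19.4% and 0.635% lower. The gene called higher with PAX5 (0.89 ± 0.28 (SE), limma adjusted p = 0.0337) and with the drugs in L428 (0.98 ± 0.28, limma adjusted p = 0.0481) was IRF8, an interferon regulatory factor of myeloid and B cells; both calls were lost without any 1 of 5 of the 6 arrays, and stood at 0.50 (0.203) and 0.60 (0.215) without L428+M replicate 3. RUNX1, which binds the CSF1R locus, was lower by 1.5 ± 0.16 (SE) in L428-PAX5+M against L428+M (limma adjusted p = 2.70e-06), while CSF1R was higher. SPI1, the macrophage and B-cell factor PU.1, lay at 6.77 to 7.10 on the L428-PAX5+M arrays, against 6.98 to 7.28 for L428+M, and was not called (−0.17 ± 0.19, limma adjusted p = 0.662), while it was lower in L428+M than in the Burkitt lines at −1.59 ± 0.17 (limma adjusted p = 2.05e-07). CEBPA, a myeloid factor, read 7.62, 8.38 and 7.01 in L428-PAX5+MAT and 6.58, 6.55 and 6.48 in L428-PAX5+M, a rise of 1.13 ± 0.23 (limma adjusted p = 7.88e-04). Its highest array was L428-PAX5+MAT replicate 2, which also had the highest CSF1R. Of the 7 monocyte markers, CD14 was called with the drugs in L428-PAX5, at 0.58 ± 0.16 (limma adjusted p = 0.00852), and lost its call without replicate 2 of L428-PAX5+MAT (0.0579). CD68, at 0.54 (adjusted p = 0.0545), was called with the block (0.00591) and without L428-PAX5+M replicate 2 (0.0415) or L428-PAX5+MAT replicate 3 (0.0264). The mean of the 7 was 5.79 to 6.01 in L428-PAX5+MAT and 5.59 to 5.73 in L428-PAX5+M, and their part in the CSF1R result was not tested.

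Genes with the most similar pattern were sought by the root mean square difference of the 6 group means, each gene centred on its own mean, among the 2494 genes whose group means spanned at least 2 log2 units. For CSF1R the closest were SLITRK6, at 0.19, and SCRT1, at 0.34. SLITRK6 averaged 7.39 in L428-PAX5+MAT, 7.16 in L428-PAX5+M, 4.51 in L428+MAT and 4.52 in L428+M. For EPHA3 they were SLITRK6, at 0.44, and PPP1R27, at 0.45. DDR2 was closest to ADGRA3 (0.13) and NIBAN1 (0.14), and EPHB1 to HIPK2 and TENM3 (0.16 each). MET, whose Namalwa values set it apart, was closest to RGS1 (0.75) and CCR7 (0.78), and MST1R to FGF20 (0.12) and ITGAX (0.14). PDGFRA, NTRK2 and KIT spanned less than 2 and were not searched.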

How the data were processed

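Total RNA was labelled with biotin and hybridised to whole-transcript arrays, 3 for each of 6 groups. The table the authors deposited holds a log2 expression value for every probe set; RMA and Partek were used, per the submitters' processing notes, with versions and array build not given in the sources used here. RMA compresses values near background, so differences of dim genes are understated. Of 33297 probe sets, 19460 carry 1 gene symbol, which gave 18417 genes, each by its brightest probe set. Replicate arrays correlated across genes with r of 0.9628 to 0.9961, and no arrays were identical. Precision rests on there being 3 arrays per group.

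All 18 arrays entered a limma 3.58.1 fit in R 4.3.3 (lmFit, then eBayes without trend, two-sided tests), with 12 residual and 6.1 prior degrees of freedom. The procedure was tested on simulated data with noise independent between arrays, which lacked the shared deviations of same-numbered arrays. Python 3.11.15, pandas 2.3.3 and matplotlib 3.10.9 were used for tables and plots. The members, gene lists and comparisons were chosen with earlier results of these data known. From each list the text names up to 3 called genes with the largest difference in each direction, and ligands beside their receptor. Sequences are RefSeq, GRCh38.p14. Where sample titles and the cell line field named different lines (3 samples), the field was followed.

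Same-numbered arrays deviated together from their group means (r 0.273 to 0.655 among the L428-derived groups and 0.325 to 0.541 between Raji and Namalwa), so replicate numbers were taken to pair those arrays and a fit with the number as a block was an alternative. That block ran over all 18 arrays, so it also paired L428-derived with Burkitt arrays. Of all 45 same-numbered pairs, 38 had r above 0.1. The lowest r was −0.014, for replicate 2 of L428+M and Namalwa. Other alternatives were only the groups compared, array medians subtracted, eBayes with trend and robust, the mean of all probe sets, dim genes left out, array weights, each array left out, and, chosen after the data were seen, all arrays numbered 3 left out.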

Additional observations from a re-analysis of the deposited data

Results flagged for a closer look

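The effect of 5-aza-dC and TSA differed between L428-PAX5 and L428 for 3 receptor genes by the limma test of that difference, adjusted over all 18417 genes. The drug effect in L428-PAX5 minus that in L428 was −1.52 ± 0.24 (SE) on the log2 scale for DDR2, −1.40 ± 0.37 for EPHB1 and −1.67 ± 0.27 for EPHA3. All 3 calls held whichever 1 of the 12 arrays was left out. For DDR2 and EPHB1 the arrays of L428+MAT and L428+M overlapped, and all 3 genes fell in L428-PAX5. EPHA3 lay under the olfactory level in both L428 groups, at 5.40 to 5.76 in L428+MAT and 4.81 to 5.23 in L428+M. A fall of EPHA3 in L428 could therefore hardly show, and its 2 drug effects are not alike in what they could register.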

How the results depend on the processing

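Of 81 member tests, 35 were called, and 30 of the 35 were called under each of the alternatives that gave them a value; 5 were lost somewhere, 10 tests not called were called somewhere, and no call changed direction. The 5 were DDR2 in Raji against Namalwa, MET and MST1R between the drug-treated lines, NTRK2 with PAX5 and PDGFRA in L428+M against Raji. With only the groups compared, MET stood at −1.08 (adjusted p = 0.13) and NTRK2 at 0.44 (0.12).

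The larger moves in counts of members were as follows, and smaller ones are left out. Those left out include the loss of NTRK2 in L428-PAX5+M against L428+M and the gain of MST1R with the drugs in L428-PAX5. They also include the gain of PDGFRA in the difference of drug effects with dim genes left out. With the replicate block, members called higher in L428+MAT against L428+M numbered 1 and members lower in the difference of drug effects 5; the block changed no other member call, though it moved list counts as well. With array weights, the counts were 2 higher in L428+MAT against L428+M, and 1 higher and 5 lower in the difference of drug effects; 1 array, L428-PAX5+MAT replicate 1, took a weight of 15.2. Without all arrays numbered 3, an alternative chosen after the data were seen, 1 member fell with PAX5, 1 was higher in L428+MAT against L428+M, 1 higher and 5 lower in the difference of drug effects, and 1 higher in Raji against Namalwa. With the mean of all probe sets, 1 was higher in Raji against Namalwa. Leaving out 1 array gave 0 to 1 higher in L428+MAT against L428+M, 3 to 4 lower between the drug-treated lines (3 without replicate 1 or 2 of L428+MAT or replicate 2 of L428-PAX5+MAT), 0 to 1 higher in the difference of drug effects and 1 to 2 higher in Raji against Namalwa.

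Over all genes, calls in L428+MAT against L428+M numbered 892, and 1592 with the block, 593 with only the groups compared and 2551 with array weights. With array weights they were 9532 against 6204 in L428-PAX5+MAT against L428-PAX5+M, 11176 against 5898 between the drug-treated lines (L428-PAX5+MAT against L428+MAT) and 5747 against 3545 in Raji against Namalwa. For the difference of drug effects they were 2990, 4730 with the block and 5965 with weights. Signal near the olfactory level limits what can be said of PDGFRA and NTRK2, and KIT lay below that level on all 18 arrays. The cause of these changes was not tested.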

Other observations

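Neighbours, a pattern looked for after the data were seen, were the nearest measured protein-coding genes in RefSeq order, so unmeasured genes were passed over. MET is described for its high count among the members. The 3 neighbours on each side of MET gave 4 calls of 6 in L428-PAX5+M against L428+M, all lower, while MET itself was not called. Among all genes, 6.55% were called lower and 9.72% higher in that comparison. ST7 stood at −2.04 ± 0.16 (SE; limma adjusted p = 4.26e-08), TFEC at −1.21 ± 0.21 (4.52e-04), TES at −0.78 ± 0.18 (0.00445) and CAV1 at −0.75 ± 0.17 (0.00442). Around CSF1R, 1 of 6 neighbours was called, SLC26A2 at 0.45 ± 0.13 (limma adjusted p = 0.0193). PDGFRB, the receptor gene next to CSF1R, was not called, at −0.06 ± 0.17 (0.879). Between the drug-treated lines, 4 of 6 neighbours were called around MET and 4 of 6 around KIT, PDGFRA among the latter. Beside these, 14.3% of all genes were called higher and 17.7% lower.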
